A study of Mus musculus with 10 samples.

Results

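The genes described here are 32 members of the mouse pluripotency network, named as a list and taken from 19232 protein-coding genes on the chromosomes analysed. The list leaves out network genes inside a segment of chromosome 6. For each gene, the peaks of HA-tagged SETα or SETβ listed by chromatin immunoprecipitation and sequencing were counted. A gene was said to have a peak when a peak overlapped the gene body or 5 kb on either side. Each peak was placed at a gene end (overlapping the 1 kb on either side of the gene's first or last base), in the gene body, or in the flank.

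Pluripotency is the capacity of a cell to form every tissue of the embryo. In mouse embryonic stem cells it is held by transcription factors that bind one another's genes, with OCT4 and SOX2 at the centre and a further layer, including KLF4, ESRRB, TFCP2L1 and TBX3, that supports the naive state under the cytokine LIF. Secreted signals such as FGF4 and NODAL prepare the same cells to leave that state. SET is a histone chaperone that binds core histones, masks their tails from acetylation and inhibits the phosphatase PP2A. Its isoforms SETα and SETβ differ at their N-terminal ends.

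The study used KH2 embryonic stem cells, a mouse line that carries a site for a single inducible transgene, here a pBS31 construct of HA-tagged SETα or SETβ. In the addback groups the transgene was expressed in SET KO cells, which lack the endogenous gene, and in the overexpression groups in cells that kept it. All 4 groups used here (SETα addback, SETβ addback, SETα overexpression and SETβ overexpression, 2 replicates each) received doxycycline at 1 µg/ml for 24 h and were crosslinked with 2 mM DSG, which links proteins to one another, and then 1% formaldehyde. The labels assign each group its own cell line, so group and line cannot be told apart, and nothing in them says that replicates came from separate cultures, so the spread between replicates may be technical. The other 2 samples of the series, SET KO cells given no doxycycline, are not analysed here, and no level from cells without the tagged protein stands beside any value. Cells grew on fibroblast feeders that were depleted before harvest, and peaks of a chromatin factor do not measure expression, so the labelled cell type could not be checked from markers.

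The libraries differed widely in the number of listed peaks. There were 22176 and 15701 peaks in SETα addback, 2518 and 9768 in SETβ addback, 4807 and 7675 in SETα overexpression, and 1343 and 2869 in SETβ overexpression, for replicates 1 and 2. Read totals were not used, so the depth behind a list is unknown. The fold of a peak is its enrichment over the local background, and with its −log10 p and −log10 q it is the authors' own value for that peak. Ranks run from the strongest peak of a list and are comparable within that list only.

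Most pluripotency genes had a peak in both SETα addback libraries, fewer had one in SETβ addback, and none had one in SETα overexpression. In SETα addback, 26 of the 32 genes (81.2%) had a peak in replicate 1, where 51.1% of all protein-coding genes had one, and 29 (90.6%) in replicate 2, against 45.4%. In SETβ addback the counts were 5 (15.6%) in replicate 1, against 12.5%, and 17 (53.1%) in replicate 2, against 32.7%. The members' share stood above that of all genes in 3 of these 4 libraries and near it in SETβ addback replicate 1. In SETα overexpression the count was 0 in both libraries, against 2.82% and 5.56% of all genes, and 0 of 32 is near such low shares. In SETβ overexpression it was 2 (6.25%) in replicate 1, against 1.92%, and 5 (15.6%) in replicate 2, against 5.9%. Of the 542 genes with a peak in SETα overexpression replicate 1, 299 lay outside chromosome 6, and with that chromosome removed the background fell to 1.65% and 4.31% in its replicates. The members were also shorter than other genes, with a median length of 9717 bp against 17401.5 bp.

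**Figure D1:**
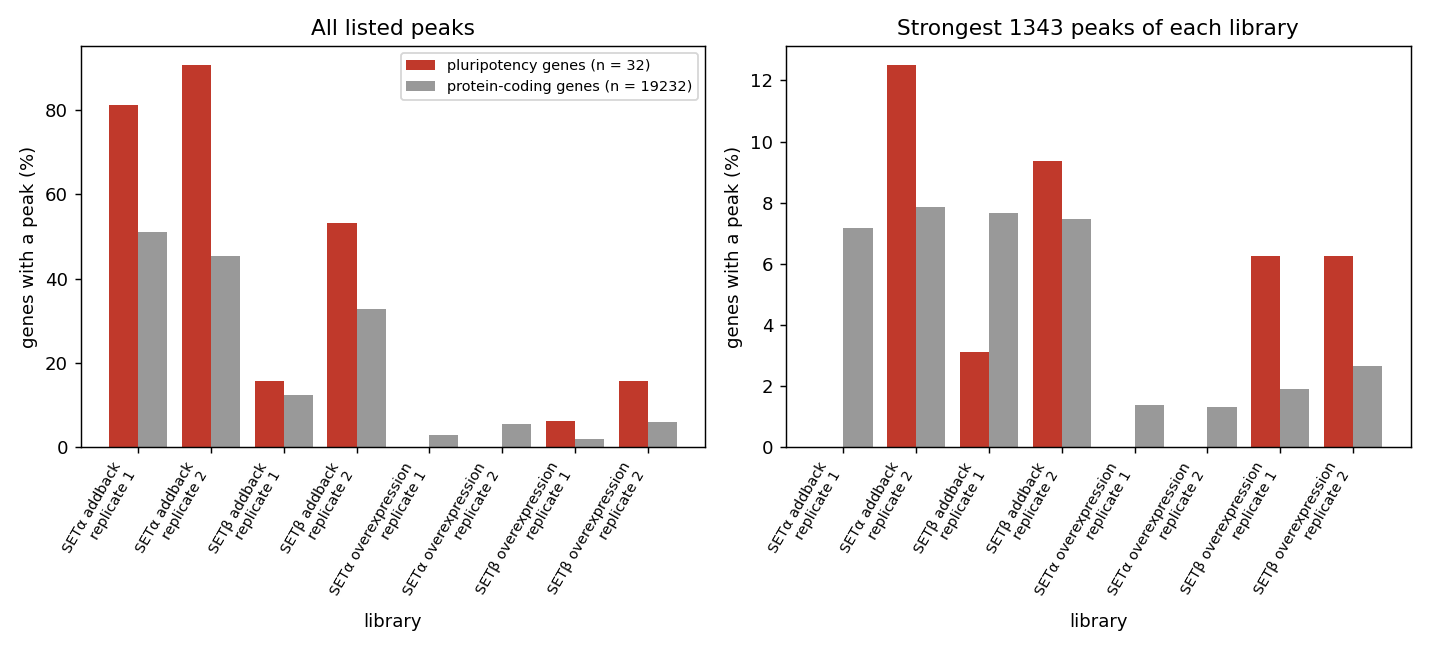
Percent of genes with a peak in each of the 8 libraries, for the pluripotency genes (red, 32 genes) and all protein-coding genes (grey, 19232 genes), with all listed peaks (left) and with the strongest 1343 peaks of each library (right, another vertical scale). With all peaks the red bars reach 81.2% and 90.6% in SETα addback and are at 0 in SETα overexpression, and on the right no red bar rises above 4 of 32 genes.

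Both replicates of a group were then required. In both SETα addback libraries a peak was listed at 24 members (75.0%), against 36.7% of all genes. In both SETβ addback libraries it was listed at 4, Lefty1, Sox2, Tdh and Trim28 (12.5%), against 9.74%. Both SETβ overexpression libraries shared 1 member, Lefty1 (3.12%), against 1.41%, and both SETα overexpression libraries shared 0, against 2.22%. Only Tcl1, whose product is a cofactor of the kinase AKT, had no peak in any library (1 of 32, against 35.2% of all genes).

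Having a peak in both replicates did not mean having the same peak. The replicate peaks overlapped by at least 1 bp at 12 of the 24 genes shared by SETα addback (50.0%), whereas among all genes shared by both libraries they overlapped at 64.4%. These 12 genes were Fbxo15, Fgf4, Klf5, Lefty2, Myc, Nodal, Otx2, Rif1, Sall4, Tbx3, Tdh and Trim28, which is 37.5% of the members against 23.6% of all genes. In SETβ addback the overlap held at 3 genes, Lefty1, Tdh and Trim28, against 7.07% of all genes. In SETβ overexpression it held at Lefty1, against 1.15%.

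No member had a peak in the lists of peaks that passed the authors' replicate comparison by irreproducible discovery rate (IDR), 1 list for each group. The SETα addback list had 530 peaks and reached 3.62% of all genes, and the SETβ addback list had 485 and reached 3.49%. The overexpression lists had 127 peaks (SETα, 0.187% of all genes) and 101 peaks (SETβ, 0.0884%), and 4.38% had one in any of the 4 lists. The nearest IDR peak lay 7.618 kb from Zscan10 in SETα addback, where its rank was 203, and 7.701 kb away in SETβ addback, where it was 134. Those nearest to Trim28 lay at 13.813 and 14.028 kb, and those nearest to Tdh at 34.462 and 34.334 kb, in the same order. The counterpart at Pou5f1 was already 162.629 kb away in SETα addback. The flank of 5 kb therefore excluded the closest of them by a few kilobases.

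**Figure D2:**
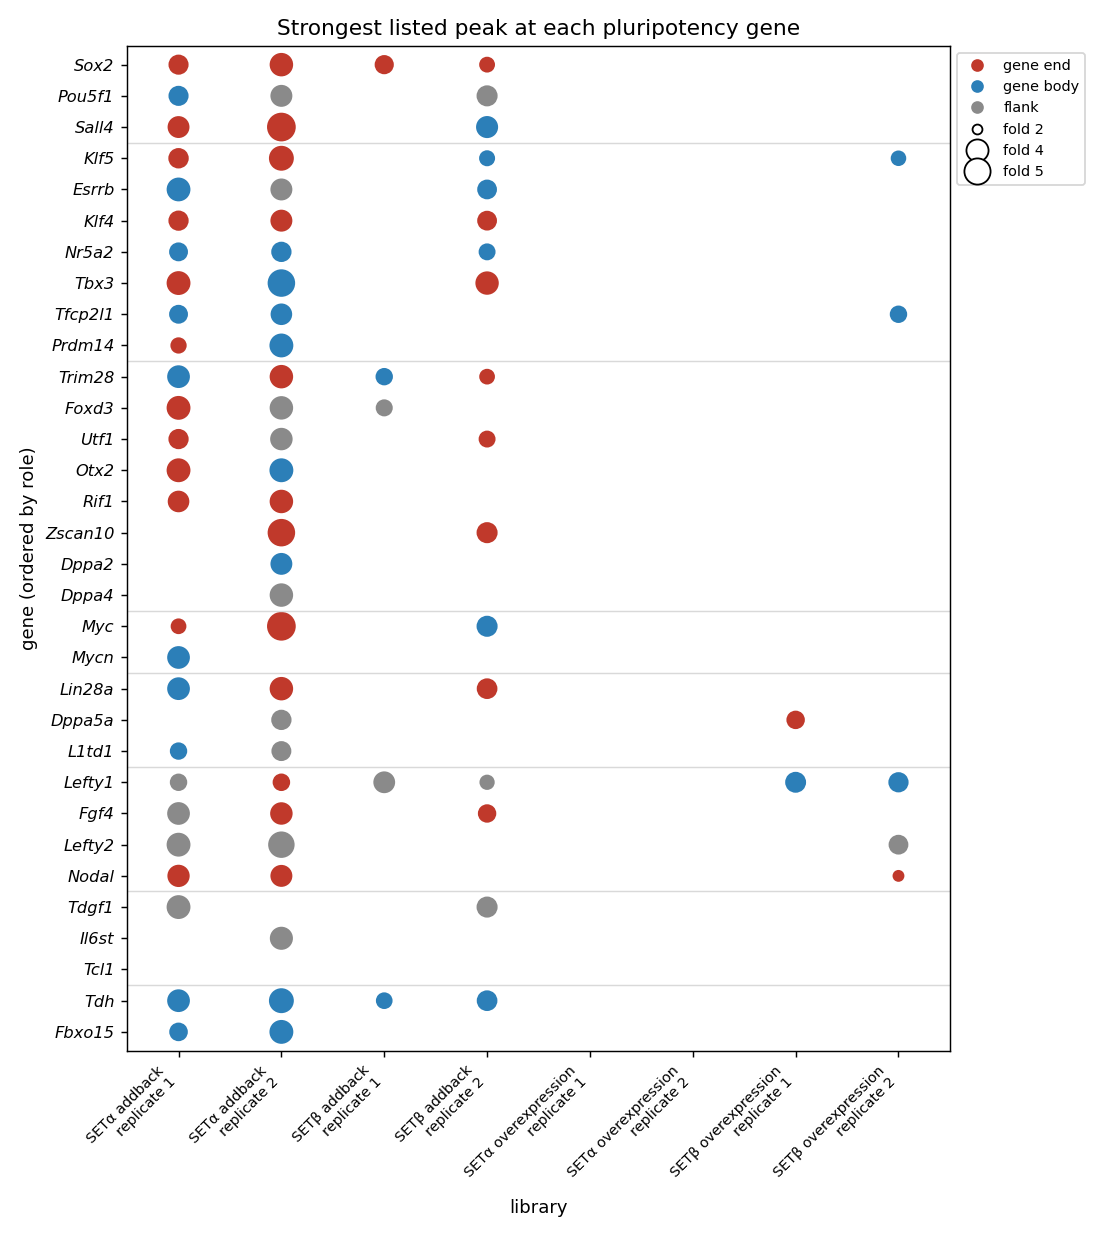
Strongest listed peak at each of the 32 genes (rows, ordered by role) in each of the 8 libraries (columns); the area of a point grows with the peak's fold and its colour gives the position, and an empty cell means no listed peak. The SETα addback columns hold 26 and 29 points, the SETα overexpression columns hold 0, and the row of Tcl1 is empty.

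Across the 8 libraries the 32 genes held 212 of 66857 listed peaks. Gene ends took 80 of them (37.7%, 95% Wilson interval 31.5 to 44.4, counting error only), gene bodies 77 (36.3%) and flanks 55 (25.9%). The interval takes the peaks as independent, although they cluster at genes, with 19 at Esrrb, so it may be too narrow. Library by library, the gene-end share of the members' peaks was 42.7% and 32.5% in SETα addback, where it was 43.5% and 49.5% over the peaks at all genes. In SETβ addback it was 33.3% and 44.4%, against 63.0% and 44.2%, and in SETβ overexpression 33.3% and 20%, against 15.0% and 25.2%. The members' share was under that of all genes in 4 of these 6 libraries, but nearly equal to it in SETα addback replicate 1. SETβ addback replicate 1 had only 6 member peaks, and the SETβ overexpression libraries had 3 and 10. The fold of the 212 peaks ran from 2.02 to 5.20 with a median of 3.15, and 90 of the 212 (42.5%) had a q of at most 0.05. Merging peaks that overlapped gave 174 regions, of which 144 came from 1 library, 27 from 2, 1 from 3 and 2 from 4. Regions from a single library made up 82.8% of the members' and 76.3% of those at all genes, and the share of peaks with such a q was 44.4% over all genes.

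By position, 21 members had a gene-end peak in SETα addback replicate 1 (34.3% of all genes had one) and 19 in replicate 2 (31.8%), and the parentheses that follow give the share of all genes in the same way. Gene-body peaks stood at 15 (23%) and 13 members (16.7%), and flanking peaks at 11 (15%) and 18 (12.7%). In SETβ addback, gene ends held a peak at 2 (8.4%) and 10 members (18.4%), gene bodies at 2 (2.52%) and 7 (13.2%), and flanks at 2 (2.23%) and 4 (7.47%). SETα overexpression had 0 members at gene ends (0.983% and 1.9%), in gene bodies (2.33% and 3.73%) and in flanks (1.19% and 2.08%). SETβ overexpression had 1 (0.338%) and 2 members (1.85%) at gene ends, 1 (1.31%) and 4 (3.04%) in bodies, and 0 (0.39%) and 1 (1.5%) in flanks. Each SETα addback replicate had some gene-end peak, not necessarily at the same end or place, at 16 members (50.0%), against 22% of all genes. The same count was 9 for gene-body peaks, against 10.6%, and 6 for flanking peaks, against 6.97%. The gene's strand was given for 19 members by the RefSeq promoter table, and for these, gene-end peaks stood at the start in 42 cases and at the 3′ end in 9 (82.4% at the start, against 87.6% over all such genes).

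An overlap of 1 bp with a peak was enough to count a promoter window here. The promoters below are shown because they overlapped peaks in 2 libraries, the most for any of the 25 windows listed for those 19 members. Each runs from 250 bases before to 50 bases after a RefSeq start (GRCm38.p6) and reads 5′ to 3′ on the strand of the gene, with capitals marking a GC box (GGGCGG or its complement CCGCCC) or a CCAAT box (CCAAT or its complement ATTGG). Lin28a lies at chr4:134018767-134019066 on the minus strand, Nodal at chr10:61417722-61418021, Fgf4 at chr7:144861136-144861435 and Utf1 at chr7:139943606-139943905, these 3 on the plus strand.
Lin28a: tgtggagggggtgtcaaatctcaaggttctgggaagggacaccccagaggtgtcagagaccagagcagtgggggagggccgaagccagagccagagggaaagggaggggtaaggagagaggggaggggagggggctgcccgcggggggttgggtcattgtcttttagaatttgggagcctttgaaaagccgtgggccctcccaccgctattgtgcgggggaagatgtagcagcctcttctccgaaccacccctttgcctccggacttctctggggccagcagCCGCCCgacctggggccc
Nodal: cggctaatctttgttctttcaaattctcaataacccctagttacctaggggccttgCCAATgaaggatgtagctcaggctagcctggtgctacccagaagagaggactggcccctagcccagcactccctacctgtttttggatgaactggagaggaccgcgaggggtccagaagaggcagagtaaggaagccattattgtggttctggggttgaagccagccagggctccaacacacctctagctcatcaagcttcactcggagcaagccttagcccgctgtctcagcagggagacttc
Fgf4: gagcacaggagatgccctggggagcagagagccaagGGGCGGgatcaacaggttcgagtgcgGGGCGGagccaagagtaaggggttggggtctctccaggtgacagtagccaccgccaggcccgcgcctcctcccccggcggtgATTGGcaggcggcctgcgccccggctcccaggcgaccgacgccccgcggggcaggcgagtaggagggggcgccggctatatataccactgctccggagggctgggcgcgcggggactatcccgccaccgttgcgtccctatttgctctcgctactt
Utf1: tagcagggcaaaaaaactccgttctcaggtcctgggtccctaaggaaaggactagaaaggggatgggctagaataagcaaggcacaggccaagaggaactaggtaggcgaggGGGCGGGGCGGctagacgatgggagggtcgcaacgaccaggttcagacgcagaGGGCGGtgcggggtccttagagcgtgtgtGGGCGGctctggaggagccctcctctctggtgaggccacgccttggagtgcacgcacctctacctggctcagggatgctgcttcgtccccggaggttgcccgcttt

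The Lin28a window was overlapped in SETα addback replicate 1 by a peak of fold 3.73 and in SETβ addback replicate 2 by one of fold 3.32. At Nodal the peaks came from SETα addback replicate 1 (fold 3.64) and SETβ overexpression replicate 2 (fold 2.02). Fgf4 was overlapped in SETα addback replicate 1 (fold 2.80) and SETβ addback replicate 2 (fold 2.91). Utf1 was overlapped in SETα addback replicate 2 (fold 3.25) and SETβ addback replicate 2 (fold 2.67). Both Lin28a summits lay inside the window and both Nodal summits outside it. At Fgf4 the SETβ summit lay inside and the SETα summit outside, and at Utf1 the reverse held. The 4 windows differed in base composition. That of Fgf4 held 28 CpG dinucleotides, 2 GC boxes and 1 CCAAT box, that of Utf1 17 CpG and 4 GC boxes of which 2 overlap each other, that of Lin28a 10 CpG and 1 GC box, and that of Nodal 5 CpG, no GC box and 1 CCAAT box.

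Over all 25 windows, 14 overlapped a peak in at least 1 library, some of them only at an edge. These 14 held a median of 15 CpG and 62.3% G and C, while the 11 without a peak held 7 CpG and 53.7%. All 32851 windows of the table had medians of 7 CpG and 52.7%. A GC box was present on either strand in 11 of the 25 (44.0%), against 35.7% of all windows, and CCAAT in 9 (36%), against 37.4%. The E-box CACGTG was present in 2 (8.0%), against 7.15%, the TATA box TATAAA in 3 (12.0%), against 13.6%, and the ETS-type motif CCGGAAG in 0, against 8.86%. A match describes the letters only. Windows overlapping a peak were richer in CpG than those without one, a difference whose part in the peak counts was not tested.

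Among the core transcription factors, Pou5f1, Sox2 and Sall4 all had a peak in both SETα addback libraries (3 of 3), and this and the role counts that follow stand beside 36.7% of all genes. Sox2, which encodes the partner of OCT4 on composite sites, was the one core gene listed in all 4 addback libraries. Its strongest peaks, all at a gene end, had a fold of 3.21 (rank 4065) and 3.90 (rank 3752) in SETα addback replicates 1 and 2, and of 3.04 (rank 1555) and 2.51 (rank 8192) in SETβ addback. These were not 1 site. A region at the start, on chromosome 3 from 34648964 to 34649781, was listed in 3 libraries, the SETα addback pair and SETβ addback replicate 2. The Sox2 peaks of the SETα addback replicates did not overlap each other there, being joined by the SETβ peak between them. SETβ addback replicate 1 instead had its peak nearer the 3′ end, from 34651210 to 34651543.

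Pou5f1 encodes OCT4, the POU factor needed to keep the inner cell mass pluripotent. In SETα addback its strongest peaks were a gene-body peak of fold 3.21 (rank 4065) in replicate 1 and a flanking peak of fold 3.58 (rank 6207) in replicate 2. SETβ addback replicate 2 had a flanking peak of fold 3.39 (rank 1755), which overlapped a weaker SETα addback replicate 1 peak, and replicate 1 had none. Sall4 encodes a zinc-finger factor that binds with OCT4. Its gene-end peak had a fold of 3.56 (rank 2866) and 5.20 (rank 882) in SETα addback, and these overlapped. In SETβ addback replicate 2 it had instead a gene-body peak of fold 3.59 (rank 1102).

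The 7 naive-state factors also all had a peak in both SETα addback libraries, and 0 of them in both SETβ addback libraries, against 9.74% of all genes. Klf4, one of the reprogramming factors, had its peak at the start in 3 libraries, with a fold of 3.24 (rank 7500) and 3.58 (rank 6207) in SETα addback and 3.15 (rank 2934) in SETβ addback replicate 2. The Klf4 peaks of the SETα replicates did not overlap. Klf5, its relative, had overlapping gene-end peaks of fold 3.27 (rank 6871) and 4.23 (rank 2317) in SETα addback, a gene-body peak of fold 2.53 (rank 8466) in SETβ addback replicate 2 and one of fold 2.46 (rank 2662) in SETβ overexpression replicate 2. Those last 2 ranks lie near the ends of their lists. Tbx3, a T-box factor, had 17 peaks in 3 libraries. The strongest was a gene-end peak of fold 3.98 (rank 1990) and a gene-body peak of fold 4.88 (rank 1110) in SETα addback replicates 1 and 2, and a gene-end peak of fold 3.88 (rank 816) in SETβ addback replicate 2.

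Esrrb encodes an orphan nuclear receptor and, with 160512 bp, is the longest member. It held the most peaks of any member, 19, with 10 and 6 in SETα addback and 3 in SETβ addback replicate 2. Its strongest was a gene-body peak of fold 3.97 (rank 1886), a flanking peak of fold 3.58 (rank 6207) and a gene-body peak of fold 3.15 (rank 2831) in those libraries. Nr5a2, another orphan receptor over a long gene, had only gene-body peaks, of fold 2.99 (rank 11599) and 3.25 (rank 9848) in SETα addback and 2.67 (rank 6985) in SETβ addback replicate 2. None of the Esrrb or Nr5a2 peaks overlapped between the SETα addback replicates. Tfcp2l1, a target of LIF signalling, had gene-body peaks of fold 2.99 (rank 11599) and 3.50 (rank 8588) in SETα addback and of fold 2.74 (rank 1615) in SETβ overexpression replicate 2. Prdm14, which represses the FGF pathway and DNA methylation genes, had a gene-end peak of fold 2.57 (rank 19658) and a gene-body peak of fold 3.99 (rank 3410) in SETα addback. Neither gene had a peak in SETβ addback.

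Of the 8 other nuclear factors, 5 had a peak in both SETα addback libraries: Foxd3, Otx2, Rif1, Trim28 and Utf1. Trim28, also called KAP1, is the corepressor that zinc-finger proteins recruit to silence retroelements, and it was listed in all 4 addback libraries. Within the first kilobase of the gene, on chromosome 7 from 13024407 to 13025063, each of the 4 had a gene-end peak, in 1 of the 2 member regions shared by 4 libraries. The replicate 1 peaks of SETα and SETβ addback did not overlap each other there, being joined by the replicate 2 peaks. The fold of these peaks was 3.49 (rank 4580) and 3.90 (rank 3752) in SETα addback, and 2.27 (rank 2461) and 2.49 (rank 6832) in SETβ addback. In both replicate 1 libraries a gene-body peak was stronger, with a fold of 3.74 (rank 2706) in SETα addback and 2.74 (rank 2074) in SETβ addback. The shared region also lies within 1 kb of an end of the coding gene Gm31649, so the peak cannot be given to Trim28 alone.

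Foxd3, a forkhead repressor, had a gene-end peak of fold 3.98 (rank 1990) and, in replicate 2, a flanking peak of fold 3.90 (rank 3752), tied with one at the start, in SETα addback, and a flanking peak of fold 2.69 (rank 2292) in SETβ addback replicate 1. Utf1, a chromatin-bound factor of undifferentiated cells, had a gene-end peak of fold 3.24 (rank 7500) and a flanking peak of fold 3.68 (rank 5551) in SETα addback, and a gene-end peak of fold 2.67 (rank 6985) in SETβ addback replicate 2. Neither gene had SETα addback peaks that overlapped. Otx2, a homeodomain factor of the formative state, and Rif1, a regulator of replication timing, did. The strongest Otx2 peaks were at a gene end with a fold of 3.98 (rank 1990) in replicate 1 and in the gene body with a fold of 3.99 (rank 3410) in replicate 2. They lay apart, and the replicate 1 peak overlapped weaker replicate 2 peaks of fold 2.62 and 3.25. The strongest Rif1 peaks, at a gene end with a fold of 3.50 (rank 4216) and 3.90 (rank 3752), also lay apart, and the overlap came from weaker replicate 1 peaks of fold 2.74 and 2.95. Neither gene had a peak in SETβ addback. Dppa2, Dppa4 and Zscan10 lacked a peak in SETα addback replicate 1. In replicate 2 the fold was 3.56 at Dppa2, 3.90 at Dppa4 and 4.88 at Zscan10, and Zscan10, a zinc-finger partner of SOX2 and OCT4, also had a gene-end peak of fold 3.39 (rank 1755) in SETβ addback replicate 2 that overlapped its SETα peak (rank 1110).

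Myc, whose product amplifies transcription and supports self-renewal, showed the largest gap in fold between the SETα addback replicates among the 24 members listed in both. Its strongest SETα addback peak had a fold of 2.49 (rank 20398) in replicate 1 and of 5.20 (rank 882, tied with a gene-body peak) in replicate 2, both at a gene end and overlapping. In SETβ addback replicate 2 a gene-body peak had a fold of 3.39 (rank 1755). Mycn, its relative, had 5 peaks in SETα addback replicate 1, the strongest in the gene body with a fold of 3.73 (rank 2885), and none in any other library.

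Among the RNA-binding proteins, Lin28a and L1td1 had a peak in both SETα addback libraries. Lin28a, which blocks maturation of let-7 microRNAs, had a gene-body peak of fold 3.73 (rank 2885) tied with the promoter peak given above, a gene-end peak of fold 3.90 (rank 3752) in replicate 2, and the SETβ addback replicate 2 promoter peak at rank 1705. L1td1, which derives from a retroelement, had a gene-body peak of fold 2.74 (rank 16315) and a flanking peak of fold 3.18 (rank 12087). Dppa5a had single peaks in 2 libraries that share no group, a flanking peak of fold 3.25 (rank 9848) in SETα addback replicate 2 and a gene-end peak of fold 2.92 (rank 530) in SETβ overexpression replicate 1.

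All 4 genes of secreted ligands and antagonists had a peak in both SETα addback libraries, against 36.7% of all genes. In a SETβ overexpression library 3 of the 4 had one, against 6.41%, 2 of them (Lefty2 and Nodal) in replicate 2 only. None of these SETβ overexpression peaks had a q of at most 0.05. Fgf4 encodes the autocrine ligand that drives ERK signalling. Its strongest peaks were in the flank with a fold of 3.73 (rank 2885, tied with a gene-end peak) and at the start with a fold of 3.68 (rank 5551) in SETα addback, and its SETβ addback replicate 2 peak had a fold of 2.91 (rank 4732). Nodal encodes a TGF-β family ligand. Its start had a peak of fold 3.64 (rank 4023) and 3.58 (rank 6207) in SETα addback and of fold 2.02 (rank 2833 of 2869) in SETβ overexpression replicate 2. The overlap between the Nodal peaks of the SETα addback replicates lay not at the start but in the flank, from 61415430 to 61415796 on chromosome 10.

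Lefty1 and Lefty2 encode neighbouring antagonists of NODAL. Lefty1 was the one member with a peak in 6 libraries. In SETα addback these were weak, a flanking peak of fold 2.74 (rank 14977) and a gene-end peak of fold 2.76 (rank 14640). In SETβ addback both replicates had an overlapping flanking peak, on chromosome 1 from 180942572 to 180942899, of fold 3.54 (rank 997) and 2.42 (rank 8959). That region lies within 1 kb of an end of Tmem63a, so it cannot be given to Lefty1 alone. In SETβ overexpression both replicates had an overlapping gene-body peak from 180936965 to 180937376, with a fold of 2.66 (rank 1070) and 3.24 (rank 652), and replicate 1 had a stronger one of fold 3.37 (rank 207). The addback and overexpression peaks of Lefty1 thus stood at different places. Lefty2 had 2 pairs of overlapping flanking peaks in SETα addback, 1 of fold 3.98 (rank 1990) and 4.23 (rank 2317) and 1 of fold 3.49 (rank 4580) and 4.60 (rank 1443). It also had a flanking and a gene-body peak of fold 3.15 (rank 713) in SETβ overexpression replicate 2.

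The 3 genes of receptors and cofactors had no peak in both replicates of any group. Il6st, which encodes the gp130 chain of the LIF receptor, had flanking peaks of fold 3.81 (rank 5432) and 2.93 in SETα addback replicate 2 only. Tdgf1, the NODAL coreceptor, had a flanking peak of fold 3.98 (rank 1990) in SETα addback replicate 1 and one of fold 3.39 (rank 1755) in SETβ addback replicate 2. Tcl1 had none.

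Both genes of the enzyme group, Tdh and Fbxo15, had overlapping peaks in SETα addback. Tdh encodes threonine dehydrogenase, on which mouse embryonic stem cells depend for one-carbon metabolism, and it was the other member with a region shared by all 4 addback libraries. That region lies in the gene body, on chromosome 14 from 63493464 to 63493971, with its summits 1248 to 1362 bp from the nearer gene end. Its fold was 3.74 (rank 2706) and 4.23 (rank 2317) in SETα addback, and 2.63 (rank 1928) and 3.32 (rank 976) in SETβ addback. It was the strongest Tdh peak in each library, and no other coding gene ends within 1 kb of it. Fbxo15, an F-box subunit of a ubiquitin ligase, had a gene-body peak of fold 2.94 (rank 14952) and 3.99 (rank 3410) in SETα addback. The overlapping Fbxo15 peaks also lay within 1 kb of an end of Timm21.

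**Figure D3:**
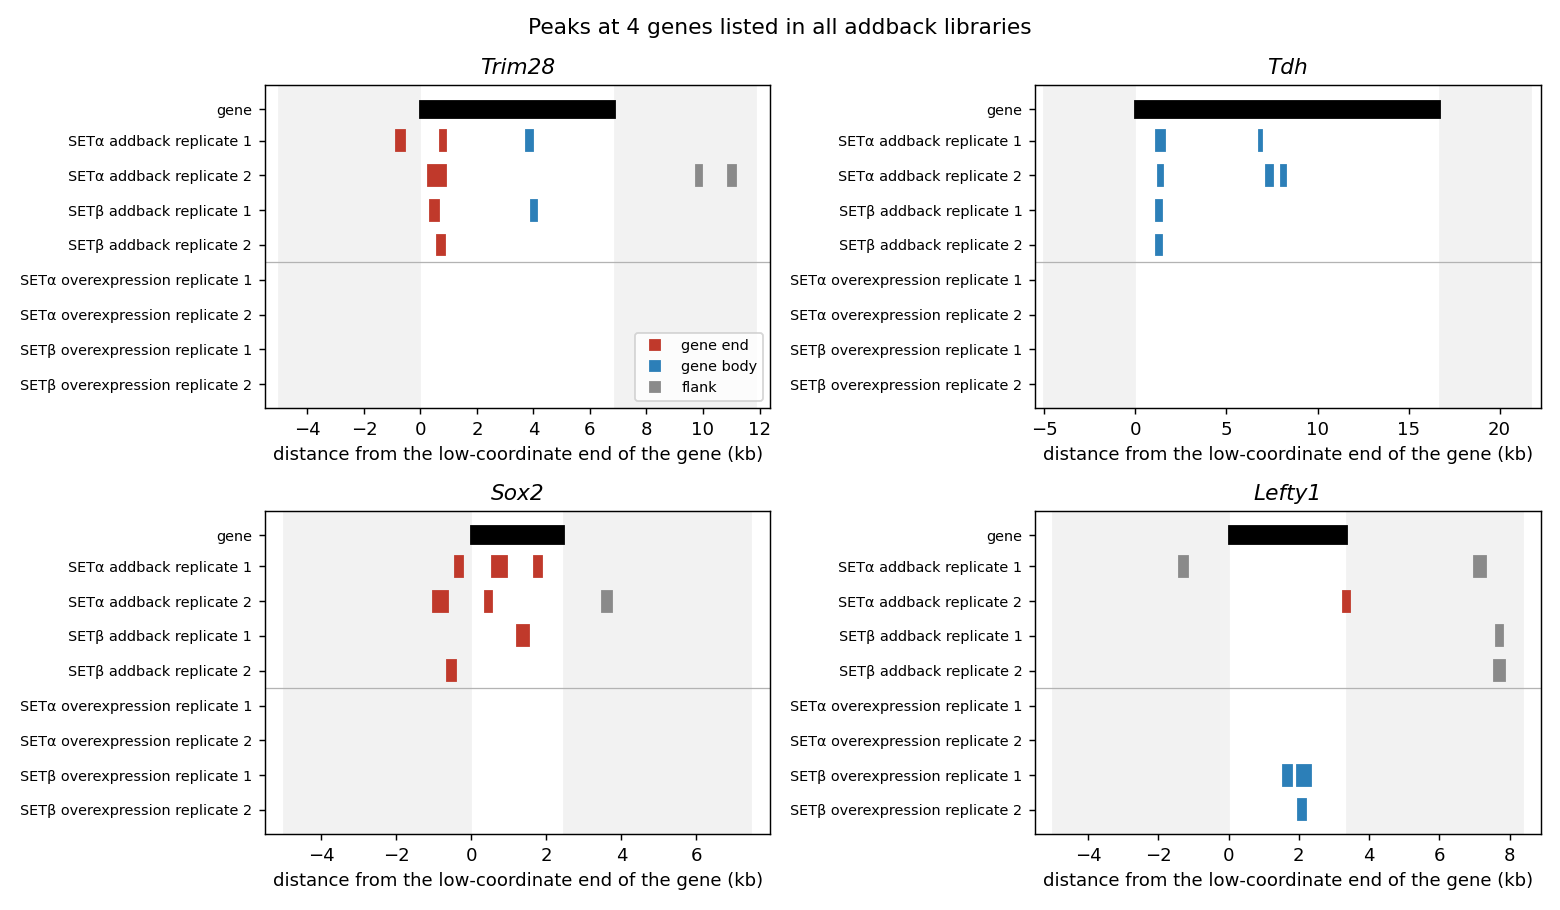
Listed peaks at Trim28, Tdh, Sox2 and Lefty1, the 4 genes with a peak in all addback libraries, by distance (kb) from the gene's low-coordinate end; each row is 1 library, the black bar is the gene, grey ground is the 5 kb flank and the colour of a peak gives its position. Each of the 4 addback libraries has a peak in 1 shared region of Trim28 and in 1 of Tdh, with further peaks elsewhere at both genes, those of Sox2 are spread along the gene, and the SETβ overexpression rows hold peaks at Lefty1 only.

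The first comparison of the design sets the addback background, without endogenous SET, against the overexpression background. A peak in all 4 addback and no overexpression library was listed at 3 members, Sox2, Tdh and Trim28 (9.38%), against 7.17% of all genes, and a peak in all 4 addback libraries at 4 (12.5%), against 8.82%. The members' share was near the background in both cases. For each gene the presence of a peak was tested by an exact 2-sided permutation that moved the background labels within each isoform. With 36 arrangements the smallest p it allows is 0.0556, and those 3 members reached it, as did 1388 genes in all. No gene had a p under 0.05, and the smallest Benjamini-Hochberg adjusted p over all genes was 0.77. Leaving out SETβ addback replicate 1, the library with 2518 peaks, raised the count from 3 to 13 members, and the share of all genes to 18%. The count was 0 with peaks of q of at most 0.05, with the strongest 1343 peaks and with −log10 q of at least 5, against 4.28%, 3.22% and 2.91% of all genes.

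The second comparison sets SETα against SETβ in the addback groups. A peak in both SETα and neither SETβ addback library was listed at 8 members, Fbxo15, L1td1, Lefty2, Nodal, Otx2, Prdm14, Rif1 and Tfcp2l1 (25.0%), against 13% of all genes. The reverse pattern was listed at 0 members, against 0.172%. The SETβ lists were shorter throughout, and with only the strongest 1343 peaks of every library both counts were 0 (0.582% and 0.588% of all genes). Leaving out SETβ addback replicate 2 raised the first count from 8 to 19 members, and the share of all genes to 26.1%. With 2 replicates a group, an exact permutation between the isoforms was not run.

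With lists of equal length, at most 4 members had a peak in any library. Among the strongest 1343 peaks of each library, the number of members with a peak was 0 in SETα addback replicate 1, against 7.16% of all genes. In replicate 2 it was 4 (Myc, Sall4, Tbx3 and Zscan10), against 7.85%. In SETβ addback it was 1 (Lefty1), against 7.67%, and 3 (Sall4, Tbx3 and Tdh), against 7.48%. In SETα overexpression it was 0 in both, against 1.39% and 1.33%. In SETβ overexpression it was 2 (Dppa5a and Lefty1), against 1.92%, and 2 (Lefty1 and Lefty2), against 2.67%. Sall4 and Tbx3 stood among the strongest peaks in SETα addback replicate 2 and in SETβ addback replicate 2, and at neither gene did the peaks concerned lie in the same place.

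How strong the members' peaks were within their own lists differed between libraries. The strongest peak of a member stood at a median of 18.2% down the list in SETα addback replicate 1, where the median over all genes with a peak was 29.6%, and at 23.9% in replicate 2, where it was also 23.9%. This value is the best of all of a gene's peaks, so it depends on their number. In SETα addback replicate 1 the 26 members with a peak held 89 peaks, and the part of peak number was not tested. In SETβ addback the medians were 76.6% against 39.6% in replicate 1, with 5 members, and 29.0% against 30.0% in replicate 2. In SETβ overexpression they were 27.4% against 48.6% with 2 members, and 56.3% against 51.3% with 5. At a q of at most 0.05 the members with a peak numbered 19 (34.7% of all genes) and 25 (35.4%) in SETα addback, 1 (6.87%) and 8 (12.2%) in SETβ addback, and 0 in all 4 overexpression libraries (0.588%, 1.52%, 0.14% and 0.51%). Only 3 member peaks had a −log10 q of at least 5, a gene-end and a gene-body peak of Myc and the gene-end peak of Sall4, all in SETα addback replicate 2, where 6.05% of all genes had such a peak.

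**Figure D4:**
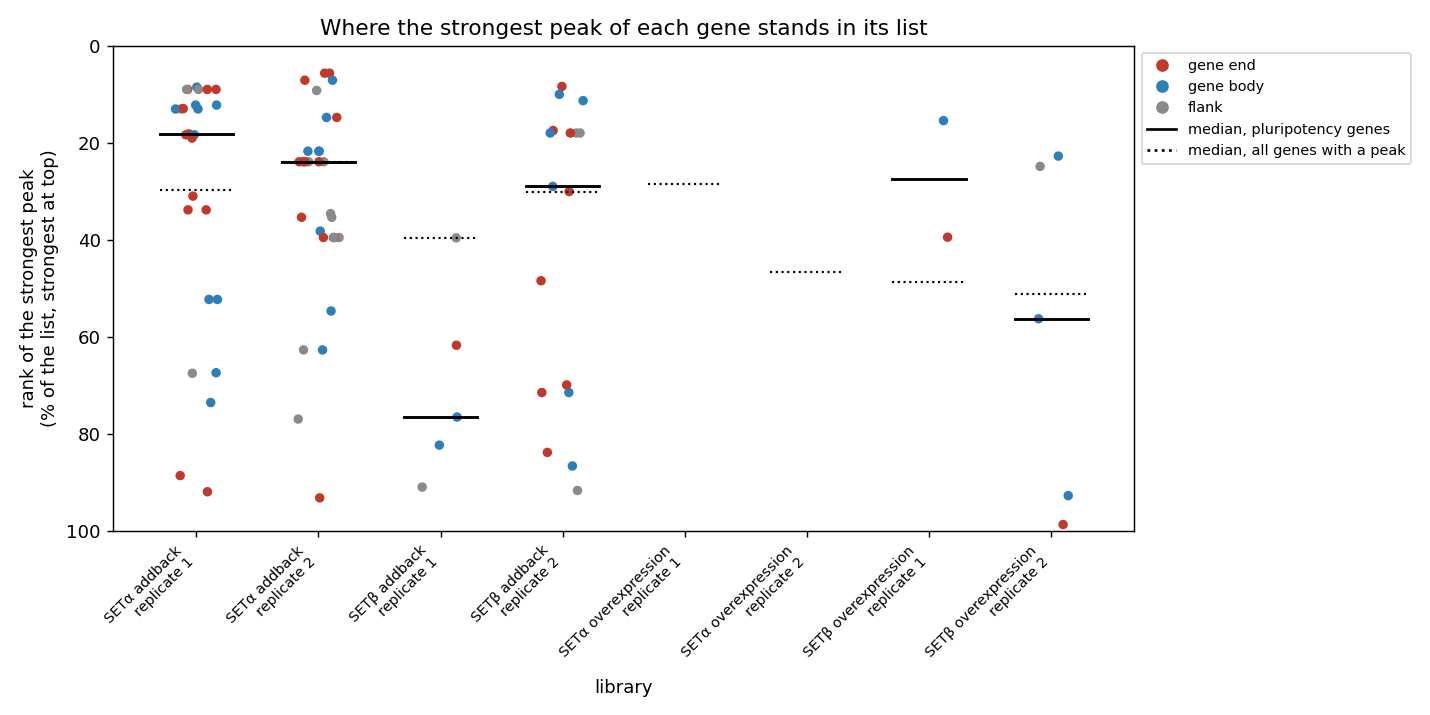
Rank of each member's strongest peak as a percent of its list (vertical axis, strongest at the top) in each of the 8 libraries; each point is a gene, its colour the peak's position, the solid line the members' median and the dotted line the median over all genes with a peak. The lines lie at 18.2% and 29.6% in SETα addback replicate 1 and coincide at 23.9% in replicate 2, and the SETα overexpression columns hold no point.

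Other genes of the signalling pathways and cofactors around the network were counted the same way. Only genes on the analysed chromosomes were counted. That left out Lif, Socs3 and Stat3 from LIF signalling, Etv4, Fgfr1 and Grb2 from FGF signalling, and Smad1 from NODAL and BMP signalling. Ctcf, Thap11 and Zfp42 were missing from the coregulators, and Hand1 and Sox1 from the early lineage regulators described below. Of 7 genes of LIF and STAT3 signalling, 4 had a peak in both SETα addback libraries, and of 11 genes of FGF and ERK signalling, 7 did. Of 15 genes of NODAL and BMP signalling 9 did, and of 15 pluripotency coregulators 12. These counts stand beside the 36.7% of all genes given above and the 24 of 32 members. In both SETβ addback libraries the counts were 1, 1, 3 and 2 in the same order, beside 9.74%. The peaks of both SETα addback libraries overlapped at 3, 7, 5 and 8 of these genes, beside 23.6% of all genes. Any overexpression library, which reached 10% of all genes, listed 0 of the LIF genes, 2 of the FGF genes (Etv5 and Spred1), 2 of the NODAL and BMP genes (Id3 and Smad4) and 3 coregulators (Chd4, Jarid2 and Tet1). The LIF genes with the most gene-end peaks were Pim3, Ptpn11 and Jak1. Pim3, a survival kinase, had gene-end peaks of fold 3.49, 4.30 and 3.64 in SETα addback replicates 1 and 2 and SETβ addback replicate 2. For FGF and ERK signalling they were Spred1, Spry2 and Map2k1, and Spry2, a feedback inhibitor of the pathway, had a fold of 3.50, 3.58 and 2.91 in the same libraries. For NODAL and BMP signalling they were Id3, Acvr2a and Smad7, and Id3, a BMP target, had a fold of 3.50, 4.23 and 3.38 there.

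The coregulators were the one list with genes in the IDR lists, Yy1 and Chd4. Yy1, a zinc-finger factor that links enhancers to promoters, had a gene-end peak in all 4 addback libraries, with a fold of 4.73 (rank 939) and 7.80 (rank 414) in SETα addback and 5.04 (rank 451) and 7.17 (rank 283) in SETβ addback. The peaks given for the last 3 libraries overlapped one another, and SETα addback replicate 1 also had a peak there, of fold 4.44 (rank 1098), beside its strongest one, which lay apart. In each of the 4 libraries the strongest Yy1 peak stood higher in its list than that of Tdh, Trim28 or Sox2. The IDR peak at Yy1, at the shared place, ranked 484 of 530 in SETα addback and 370 of 485 in SETβ addback. Chd4, a remodeller, lies inside the chromosome 6 segment that the list of members leaves out, from 125095980 to 125130591, and had IDR peaks in the flank, at rank 419 in SETα addback and at ranks 345 and 451 in SETβ addback. The third coregulator by gene-end peaks was Kdm1a, a histone demethylase, with a fold of 4.48, 4.23 and 3.02 in both SETα addback libraries and SETβ addback replicate 1.

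Genes of other cell states were counted last. Of 12 early lineage regulators, most of which are silent or low in undifferentiated cells, 6 had a peak in both SETα addback libraries, against 36.7% of all genes. In both SETβ addback libraries 0 did, against 9.74%, and in any overexpression library 0, against 10%. Eomes, Cdx2 and Sox17 led them, and Eomes, a mesendoderm factor, had gene-end peaks of fold 3.73, 3.58 and 3.45 in SETα addback replicates 1 and 2 and SETβ addback replicate 2. Those values are within the range of the members' own peaks. Of 8 genes typical of feeder fibroblasts, 2 had a peak in both SETα addback libraries, and 0 in both SETβ addback libraries or in any overexpression library, beside the same shares of all genes. Vim, an intermediate filament gene that many cell types express, led the list with a gene-end peak of fold 3.59 (rank 795) in SETα addback replicate 1, and lower peaks of fold 3.18 (rank 12087) in replicate 2 and 2.79 (rank 4701) in SETβ addback replicate 2. Fbn1 and Col3a1 followed it.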

How the data were processed

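Peaks of HA-tagged SETα or SETβ were analysed in 8 libraries, 2 for each of 4 groups. Per the submitters' processing notes, Bowtie2, MACS2 and deepTools were used with the builds GRCm38 and mm10, and their versions, settings and control library are not given in the sources used here. Each library has its own deposited list, in which the score of a peak is proportional to its −log10 p. The fold enrichment the authors deposited is a ratio over local background on a linear scale. Their peak caller also gave the deposited −log10 p and −log10 q, with no p above 0.00499. The authors deposited 1 IDR list per group, whose score scales the IDR (at most 0.0499) and whose −log10 p is the lower one of the replicates.

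Genes came from a RefSeq table of GRCm38.p6, by symbol, and promoter sequences from RefSeq GRCm38.p6. The promoter table had no entry for Prdm14, Lefty1, Lefty2, Rif1, Sall4, Tbx3, Dppa5a, Tdh, Klf5, Myc, Dppa2, Dppa4 and Fbxo15. Chromosomes 8 and 11 were not analysed here, and 3 mitochondrial peaks were left out. Peaks were ranked by −log10 p and then fold, and ties shared a rank. Overlap meant 1 bp or more. The background is the share of all 19232 protein-coding genes that met the same rule. The members and lists were chosen with earlier results of these data known, so no p is given over them. Members with a peak in both replicates of a group were described in each library, and the others by counts and ranges, with values also for those that help to complete a role. From each further list, at most 3 genes were named, by gene-end peaks in the most addback libraries and then by rank. Alternatives changed the peak threshold, list length, flank, gene-end window and replicates. Analyses used Python 3.11.15, numpy 2.4.6, pandas 2.3.3 and scipy 1.17.1. The overlap code was tested on simulated data: of 200 planted peaks it gave 200 the right position, and over 300 genes it disagreed with a brute-force count at 0.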

Additional observations from a re-analysis of the deposited data

How the results depend on the processing

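The counts of members depended on how strong a peak had to be. When peaks needed a −log10 q of at least 5, the members with a peak in both libraries numbered 0 for SETα addback (3.9% of all genes), 0 for SETβ addback (3.13%) and 0 for SETβ overexpression (0.0208%), those in all 4 addback and no overexpression library 0 (2.91%), and those in both SETα and neither SETβ addback library 0 (0.712%). With the strongest 1343 peaks of each library the same counts were 0 for SETα addback (4.46% of all genes), 0 for SETβ addback (4.63%), 0 for all 4 addback and no overexpression library (3.22%) and 0 for SETα without SETβ (0.582%), while SETβ overexpression had a count of 1 (0.993%). Beside the shares of all genes under these settings, counts of 0 or 1 of 32 are near the background. The settings of q of at most 0.05 and of overlapping replicate peaks were added once the data had been seen. The first gave 17 for SETα addback (22.5% of all genes), 12 for SETα without SETβ (13.7%), and 0 for SETβ addback (4.91%), for SETβ overexpression (0.0884%) and for all 4 addback and no overexpression library (4.28%), and the second gave 12 for SETα addback (23.6%). Fewer peaks enter under each of these settings by construction. A flank of 1 kb gave 22 for SETα addback (31.8% of all genes) and 3 for SETβ addback (7.99%), and summits in place of peak spans gave 24 (36.6%) and 4 (9.66%). The IDR count stayed at 0 under both. The share of member peaks at gene ends went from 37.7% to 17.0% with a window of 250 bp and to 62.3% with one of 2.5 kb.

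Leaving out 1 library at a time, the count ran from 26 to 29 for SETα addback, where 51.1% and 45.4% of all genes met the same rule. It ran from 5 to 17 for SETβ addback (17 without replicate 1), where the share of all genes went from 12.5% to 32.7%, and from 2 to 5 for SETβ overexpression, where it went from 1.92% to 5.9%. It ran from 3 to 13 for all 4 addback and no overexpression library (13 without SETβ addback replicate 1, 18% of all genes). Counts of 3 stood beside 7.21% to 7.79%. For SETα without SETβ the count ran from 9 to 19 (19 without SETβ addback replicate 2, 26.1%). The count of 9 stood beside 22.4% without SETα addback replicate 2 and 14.9% without SETβ addback replicate 1. The gene-end share ran from 34.1% to 40.7%. The count was 0 throughout for SETα overexpression (2.82% and 5.56% of all genes) and for SETβ without SETα (0.406% to 3.45%). Replicate numbers were not found to pair libraries, with correlations of −0.0141 to 0.0913 between same-numbered deviations. With the replicate number as a block, 16 arrangements allow a smallest p of 0.125, and 3 members reached it.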
